A study of Mus musculus with 12 samples.

Results

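Hepatic stellate cells sit between the sinusoidal endothelium and the hepatocytes, store vitamin A as retinyl esters and make much of the liver's collagen. When they are activated, platelet-derived growth factor (PDGF) drives their proliferation and transforming growth factor beta (TGF-beta) drives their production of matrix, while tissue inhibitors of metalloproteinases (TIMPs) slow matrix breakdown. Glucocorticoids such as dexamethasone act through the glucocorticoid receptor, a transcription factor that binds DNA as a dimer and also restrains other transcription factors.

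The genes described here are 37 stellate cell and extracellular matrix genes, listed by name and not selected by a threshold on these arrays. The list was chosen with earlier results of these data known. Of these, 36 had a probe set that carries their symbol alone, out of 19937 genes with such a probe set, and Fbn1 (fibrillin 1) was not analysed here. Each of the 36 had 1 such probe set. All 36 passed the filter on low values and were among the 17904 genes tested.

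RNA came from the livers of 12 male C57Bl/6 mice, with 1 Affymetrix whole-transcript array per animal and 3 separate animals in each of 4 groups. Hdac6 encodes a histone deacetylase that acts mainly on proteins of the cytoplasm, among them tubulin and the chaperone Hsp90, on which the glucocorticoid receptor depends. The groups were HDAC6 Y/- (knockout) mice given dexamethasone, HDAC6 Y/- mice given vehicle, wild-type mice given dexamethasone and wild-type mice given vehicle. Injections went into the peritoneal cavity over 3 weeks, at 1 mg/kg of dexamethasone. The Y/- notation describes males whose single X chromosome carries the disrupted gene, and the labels name no tissue to which the loss is limited. The labels give no age, no hour of tissue collection and no date of hybridisation. The comparisons ask how dexamethasone changes liver transcripts and whether that change depends on Hdac6.

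Levels are the log2 intensities that were deposited, so a log2 change of 1 is a doubling. These levels compare arrays for 1 gene, not genes with each other. Errors of group means are SDs over 3 animals, and errors of changes are standard errors from limma, with Benjamini-Hochberg adjustment over all 17904 genes and a call at an adjusted p under 0.05. The deleted gene checked the labels: Hdac6 lay at 3.62, 3.89 and 3.75 in the knockout dexamethasone livers and at 4.40, 4.07 and 3.90 in the knockout vehicle livers, against 5.86, 6.18 and 5.92 in the wild-type dexamethasone livers and 6.09, 6.08 and 6.43 in the wild-type vehicle livers. Of the arrays, 4 carried RNA of the exocrine pancreas, with the digestive enzyme gene Cpa1 above a log2 level of 6. Cpa1 was at 10.72 in knockout vehicle animal 3, 9.44 in wild-type dexamethasone animal 3, and 11.64 and 11.21 in wild-type vehicle animals 1 and 2. The mean level of 20 pancreas genes was 7.09 to 8.91 in these 4 arrays, against 2.93 to 3.28 in the 8 other arrays. Because 2 of 3 wild-type vehicle arrays are affected, values without the 4 arrays, or with a term for them, stand beside results they change.

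The defining markers of the label passed the filter on low values. Lrat, the enzyme that esterifies vitamin A, Reln, a secreted glycoprotein of quiescent stellate cells, Des (desmin, an intermediate filament) and Col1a1, the main chain of type I collagen, all exceeded the 20th percentile of the array in 12 of 12 arrays. The same held for every other member but Timp1, a TIMP, which did so in 5 of 12 arrays, so its changes are those of a probe set close to background. A level above that percentile does not by itself show expression. Des ran from 2.79 to 4.34 over the 12 arrays, where the array medians were 3.13 to 3.24. In whole liver, fewer cells of a type and less RNA per cell cannot be told apart.

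A small set of these genes was called under dexamethasone. Where the counts are near the shares over all genes, they are not a result about the set. In wild-type liver 2 of 36 rose, Timp3 and Hand2, and 5 fell, Sparc, Pdgfrb, Col3a1, Tgfb1 and Vim. Over all genes tested in that comparison, 4.57% were called higher and 6.95% lower. In knockout liver 2 of 36 rose, again Timp3 and Hand2, and 1 fell, Pdgfrb, where 4.38% of all genes were called higher and 3.92% lower. All 3 members called in the knockout were called in the same direction in the wild type. Groups that did not overlap were common, at 27.0% of all genes in the wild type and 24.3% in the knockout. Of the 36 members, 10 did not overlap in the wild type and 8 in the knockout. The 6 dexamethasone livers lay apart from the 6 vehicle livers for 3 members and for 8.76% of all genes. Non-overlap alone is therefore not read as a change. With the dexamethasone effect averaged over genotypes, 2 members rose and 4 fell (Pdgfrb, Sparc, Col3a1 and Tgfb1), against 7.29% and 9.94% of all genes. Without the pancreas arrays 3 of these 6 averaged calls were lost: Sparc was at -0.45 (adjusted p = 0.104), Col3a1 at -0.38 (adjusted p = 0.101) and Tgfb1 at -0.27 (adjusted p = 0.241). With a term for those arrays in the limma fit, the averaged Tgfb1 change was -0.31 (adjusted p = 0.0533) and the calls of Sparc and Col3a1 stayed.

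The promoters of 4 of these genes are shown because they belong to the pair of members that rose and to matrix genes that fell. They are the 250 bases before the transcription start from RefSeq (build GRCm38.p6), on the strand of the gene and 5′ to 3′. Capitals mark matches on either strand to the SMAD box CAGACA (read as TGTCTG on the other strand), a motif bound by the transcription factors of TGF-beta signalling, and to the TATA box TATAAA.
Timp3 (chr10:86300162-86300411, plus strand): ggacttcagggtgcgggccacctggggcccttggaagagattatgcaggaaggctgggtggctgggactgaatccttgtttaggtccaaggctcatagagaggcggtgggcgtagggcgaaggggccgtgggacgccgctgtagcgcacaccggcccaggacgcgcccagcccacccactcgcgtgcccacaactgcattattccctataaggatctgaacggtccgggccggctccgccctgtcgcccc
Hand2 (chr8:57320733-57320982, plus strand): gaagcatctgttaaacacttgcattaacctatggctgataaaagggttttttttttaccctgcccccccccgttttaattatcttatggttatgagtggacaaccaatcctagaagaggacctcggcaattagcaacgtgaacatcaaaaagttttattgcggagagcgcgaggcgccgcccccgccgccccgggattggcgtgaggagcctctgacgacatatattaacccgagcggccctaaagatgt
Sparc (chr11:55420081-55420330, minus strand): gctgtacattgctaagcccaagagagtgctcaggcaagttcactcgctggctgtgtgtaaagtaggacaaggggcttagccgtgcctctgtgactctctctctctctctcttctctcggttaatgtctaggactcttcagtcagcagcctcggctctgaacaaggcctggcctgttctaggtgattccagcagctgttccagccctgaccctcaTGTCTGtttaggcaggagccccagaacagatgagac
Col3a1 (chr1:45311288-45311537, plus strand): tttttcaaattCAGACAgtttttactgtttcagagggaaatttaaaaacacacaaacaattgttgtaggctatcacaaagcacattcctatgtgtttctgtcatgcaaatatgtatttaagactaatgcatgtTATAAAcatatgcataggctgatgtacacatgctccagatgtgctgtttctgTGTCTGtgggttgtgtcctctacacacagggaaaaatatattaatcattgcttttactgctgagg

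The Col3a1 window held 2 SMAD boxes and 1 TATA box, the Sparc window 1 SMAD box, and the Timp3 and Hand2 windows neither motif. Tgfb1 and Vim also fell in the wild type, and their windows, not shown, held no SMAD box. The other member windows with a SMAD box were those of Acta2, Col1a2, Col5a1, Colec11 and Ecm1, which were not called in any comparison. Promoter entries were found for 25 members (27 entries, since a gene can have more than 1 start). A SMAD box lay in 7 of these 27, where 17.1% of all 32851 promoter entries hold one, and a TATA box in 4, where 12.4% of all do. A full glucocorticoid response element, searched as the half-sites AGAACA, then TGTNCT, with 3 free bases between, was in 0 of the 27 and in 0.0365% of all. A match describes letters in this window and is not evidence of binding.

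Timp3 encodes the TIMP that is bound to the matrix and also inhibits several ADAM and ADAMTS proteases. Its level was 6.56, 6.80 and 6.95 in knockout dexamethasone livers, against 5.73, 5.40 and 6.04 in knockout vehicle livers. It was 7.25, 7.28 and 7.16 in wild-type dexamethasone livers, against 6.34, 6.22 and 6.42 in wild-type vehicle livers. Within each genotype every dexamethasone liver lay above every vehicle liver. The log2 change was 1.05 ± 0.15 in the knockout (2.07-fold, limma adjusted p = 4.10e-04) and 0.90 ± 0.15 in the wild type (1.87-fold, limma adjusted p = 0.00127). The rise differed between genotypes by 0.15 ± 0.21 on the log2 scale, with a 95% interval of -0.29 to 0.59. Without the 4 pancreas arrays it was 1.21 in the knockout (limma adjusted p = 0.00134) and 0.85 in the wild type, where the adjusted p of 0.0536 missed the threshold with 1 wild-type vehicle array left.

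Hand2 encodes a transcription factor expressed in stellate cells. Its level was 4.84, 4.66 and 4.76 in knockout dexamethasone livers, against 4.44, 4.35 and 4.26 in knockout vehicle livers. It was 4.86, 4.94 and 4.88 in wild-type dexamethasone livers, against 4.26, 4.45 and 4.54 in wild-type vehicle livers. The 6 dexamethasone livers all lay above the 6 vehicle livers. The rises were modest in size, 0.40 ± 0.10 in the knockout (1.32-fold, limma adjusted p = 0.0185) and 0.48 ± 0.10 in the wild type (1.39-fold, limma adjusted p = 0.00551). Both were 0.36 when the pancreas arrays were left out, with adjusted p = 0.0899 in the knockout and 0.265 in the wild type. In the average over genotypes the call stayed without those arrays (0.36, adjusted p = 0.0328).

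Pdgfrb, the PDGF receptor beta that drives stellate cell proliferation, moved the other way. Its level was 4.56, 4.12 and 4.49 in knockout dexamethasone livers, against 5.24, 4.76 and 5.34 in knockout vehicle livers. It was 4.45, 4.44 and 4.04 in wild-type dexamethasone livers, against 5.29, 5.25 and 5.07 in wild-type vehicle livers. The highest of the 6 dexamethasone livers, at 4.56, lay below the lowest of the 6 vehicle livers, at 4.76. Pdgfrb fell by 0.72 ± 0.17 in the knockout (limma adjusted p = 0.0152) and by 0.89 ± 0.17 in the wild type (limma adjusted p = 0.00335). Without the pancreas arrays the changes were -0.61 in the knockout (adjusted p = 0.0794) and -0.63 in the wild type (adjusted p = 0.23), and the average over genotypes, -0.62, was still called (adjusted p = 0.0269). Pdgfra, the receptor's alpha partner that marks fibroblasts more broadly, had changes of 0.22 ± 0.21 in the knockout and 0.15 ± 0.21 in the wild type and passed in neither.

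**Figure D1:**
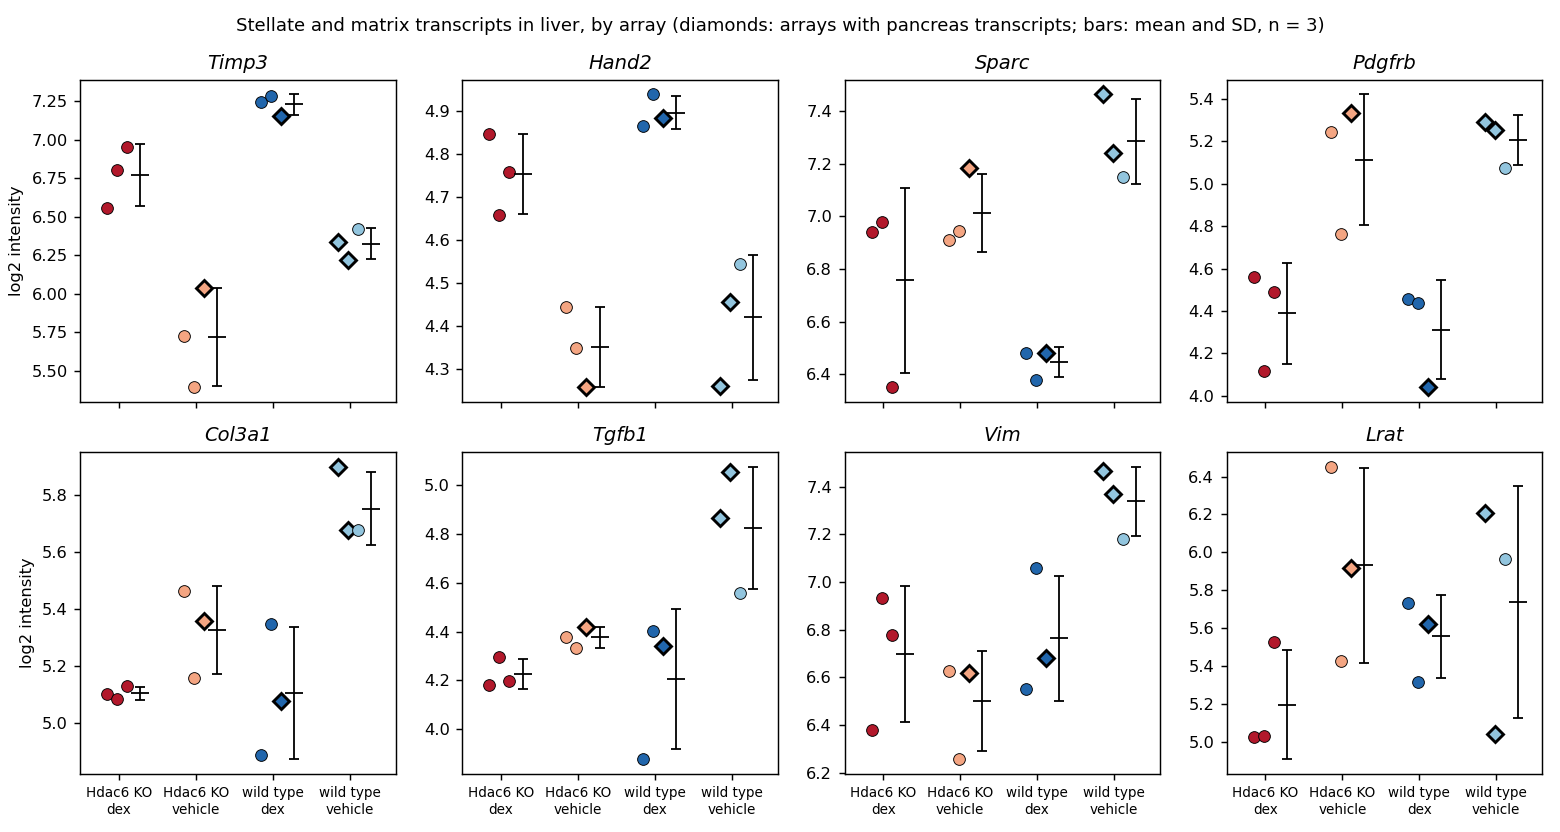
Log2 intensity of 8 genes on the y axis in each of the 12 liver arrays, by group on the x axis. Points are animals, diamonds are the 4 arrays with pancreas transcripts, and the bars are the mean and SD of 3 animals. Timp3 and Hand2 sit higher and Pdgfrb lower in the dexamethasone livers of both genotypes, while the means of Sparc, Col3a1, Tgfb1 and Vim are highest in the wild-type vehicle livers, and Lrat spreads widely under vehicle.

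Other stellate cell genes did not pass in either genotype. Lrat was at 5.03, 5.03 and 5.53 in knockout dexamethasone livers, against 6.45, 5.42 and 5.92 in knockout vehicle livers. It was at 5.73, 5.31 and 5.62 in wild-type dexamethasone livers, against 6.21, 5.04 and 5.97 in wild-type vehicle livers. The groups overlapped in both genotypes, and the vehicle groups had SDs of 0.51 and 0.61. The log2 changes were -0.74 ± 0.29 in the knockout (limma adjusted p = 0.171) and -0.18 ± 0.29 in the wild type (limma adjusted p = 0.778). Without the pancreas arrays they were -0.74 in the knockout and -0.44 in the wild type. Lrat was called in the knockout in 1 of 23 alternatives, a limma fit with a term for the replicate number (adjusted p = 0.0448). Its average over genotypes was called in 2 of 22.

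Reln stayed within narrow limits, with group means of 7.45 ± 0.15 in knockout dexamethasone, 7.41 ± 0.26 in knockout vehicle, 7.40 ± 0.19 in wild-type dexamethasone and 7.35 ± 0.21 in wild-type vehicle livers (SD, n = 3 each). Its averaged dexamethasone change of 0.04 had a 95% interval of -0.19 to 0.27. Without the pancreas arrays the averaged change of Reln was 0.23. By genotype it was then 0.14 in the knockout, in place of 0.03, and 0.32 in the wild type, in place of 0.05. Des was at 2.83, 3.24 and 3.09 in knockout dexamethasone livers and 3.64, 3.32 and 2.79 in knockout vehicle livers. It was at 3.24, 3.00 and 3.20 in wild-type dexamethasone livers and 4.34, 3.75 and 3.27 in wild-type vehicle livers. The wild-type groups did not overlap, but the change of -0.64 ± 0.24 missed the threshold (limma adjusted p = 0.125), and it was -0.15 without the pancreas arrays. In the knockout the change of Des was -0.20 ± 0.24 (limma adjusted p = 0.784), and -0.43 without those arrays. Its average over genotypes was -0.42, or -0.29 without them.

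Colec10 and Colec11, soluble lectins that stellate cells make, had values on the lower side in both genotypes without passing. Colec10 changed by -0.15 ± 0.14 in the knockout and -0.30 ± 0.14 in the wild type, and Colec11 by -0.22 ± 0.16 and -0.34 ± 0.16 in the same order. Ecm1, a secreted matrix protein, had changes of 0.01 ± 0.16 in the knockout and -0.17 ± 0.16 in the wild type. One wild-type vehicle array, that of animal 2, stood out for Ecm1 at 9.07, where the other 11 arrays lay between 8.17 and 8.54. Rgs5, a regulator of G protein signalling found in pericytes, was 0.33 ± 0.21 in the knockout and -0.39 ± 0.21 in the wild type, and without the pancreas arrays it was 0.42 in the knockout and turned to 0.05 in the wild type. The wild-type change of Ecm1 likewise turned, to 0.06.

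Of the 3 contractile and cytoskeletal genes, Vim passed in the wild type and none passed in the knockout. Vim (vimentin, an intermediate filament of mesenchymal cells and leukocytes) was at 6.38, 6.93 and 6.78 in knockout dexamethasone livers, against 6.62, 6.26 and 6.62 in knockout vehicle livers. In wild-type livers it was at 6.55, 7.06 and 6.68 under dexamethasone, against 7.47, 7.37 and 7.18 under vehicle. The knockout groups overlapped and the wild-type groups did not. Vim fell by 0.58 ± 0.16 in the wild type (limma adjusted p = 0.0382), with a change of 0.20 ± 0.16 in the knockout (limma adjusted p = 0.635). This call was the least stable of all those made: with a term for the pancreas arrays the adjusted p was 0.0716, and without those arrays the change was -0.38 (adjusted p = 0.609).

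Acta2, the smooth muscle actin of activated stellate cells and of vessel walls, was the most variable member, with a residual SD of 0.63 against a median of 0.20 over the 36. It was at 5.48, 5.21 and 6.30 in knockout dexamethasone livers, against 5.10, 4.92 and 5.60 in knockout vehicle livers. It was at 5.63, 6.88 and 5.49 in wild-type dexamethasone livers, against 7.32, 6.74 and 5.85 in wild-type vehicle livers. The groups overlapped in both genotypes, and the changes were 0.46 ± 0.41 in the knockout and -0.64 ± 0.41 in the wild type. Without the pancreas arrays the wild-type change of Acta2 turned to 0.40, beside 0.66 in the knockout. Tagln, an actin-binding protein of smooth muscle, had changes of -0.01 ± 0.19 in the knockout and -0.27 ± 0.19 in the wild type, which was 0.05 without those arrays.

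Among the 5 fibrillar collagen genes, Col3a1 alone passed, and in the wild type alone. Col3a1 encodes type III collagen, which accompanies type I in the liver's fine reticular fibres. Its level was 5.10, 5.08 and 5.13 in knockout dexamethasone livers, against 5.46, 5.16 and 5.36 in knockout vehicle livers. It was 4.89, 5.35 and 5.08 in wild-type dexamethasone livers, against 5.90, 5.68 and 5.68 in wild-type vehicle livers. Dexamethasone livers lay below vehicle livers without overlap in both genotypes. The changes were -0.22 ± 0.12 in the knockout (limma adjusted p = 0.384) and -0.65 ± 0.12 in the wild type (1.57-fold lower, limma adjusted p = 0.00363), and their difference did not pass (0.43 ± 0.17, adjusted p = 0.759). When the pancreas arrays were left out, the wild-type change of Col3a1 was -0.56 and no longer called (adjusted p = 0.219).

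Col1a1 was at 5.25, 5.21 and 5.39 in knockout dexamethasone livers, against 5.46, 5.15 and 5.30 in knockout vehicle livers. It was at 5.05, 5.40 and 5.44 in wild-type dexamethasone livers, against 5.67, 5.79 and 5.41 in wild-type vehicle livers. The groups overlapped in both genotypes. The change was -0.02 ± 0.13 in the knockout, with a 95% interval of -0.30 to 0.26, and -0.33 ± 0.13 in the wild type (limma adjusted p = 0.141). Col1a2, the second chain of type I collagen, had changes of -0.01 ± 0.10 in the knockout and -0.20 ± 0.10 in the wild type. Col5a1 and Col5a2, minor fibrillar chains, had the smallest spread of all members, with residual SDs of 0.07 and 0.06, and changes between -0.12 and 0.07 over both genotypes. The levels of Col5a2, from 2.81 to 3.00, lay below the lowest array median of 3.13, so its spread and changes are those of a low probe set. Col5a2 lies next to Col3a1 on chromosome 1 with 0 protein-coding genes between them in the RefSeq table, and its change in the wild type was 0.02 ± 0.08.

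None of the 6 network and fibril-associated collagen genes passed. Nearest within a genotype was Col4a1, a chain of basement membrane collagen, at 5.42, 5.43 and 5.31 in knockout dexamethasone livers, against 5.25, 5.07 and 4.94 in knockout vehicle livers. These 2 groups did not overlap, but the change of 0.30 ± 0.10 missed the threshold (limma adjusted p = 0.0898), and in the wild type it was -0.04 ± 0.10. Its neighbouring partner gene Col4a2 had changes of -0.05 ± 0.13 in the knockout and -0.08 ± 0.13 in the wild type. Col6a1, Col6a2 and Col6a3, the chains of the beaded filament collagen VI, ranged from -0.20 to 0.11 over both genotypes. Col14a1, a collagen that decorates fibrils, was at -0.30 ± 0.15 in the knockout and -0.27 ± 0.15 in the wild type, with an average over genotypes of -0.28 ± 0.10 (limma adjusted p = 0.0863).

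Of the proteoglycans and matricellular proteins, Sparc fell in the wild type. Sparc is a collagen-binding protein made by stellate and endothelial cells. Its level was 6.94, 6.98 and 6.35 in knockout dexamethasone livers, against 6.91, 6.94 and 7.18 in knockout vehicle livers. It was 6.48, 6.38 and 6.48 in wild-type dexamethasone livers, against 7.46, 7.24 and 7.15 in wild-type vehicle livers. In the knockout 2 of 3 dexamethasone livers were at vehicle level and animal 3 was low, whereas the wild-type groups did not overlap. The changes were -0.26 ± 0.15 in the knockout (limma adjusted p = 0.431) and -0.84 ± 0.15 in the wild type (1.79-fold lower, limma adjusted p = 0.0028), and without the pancreas arrays the wild-type change was -0.72 (adjusted p = 0.174).

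Dcn (decorin), Lum (lumican) and Bgn (biglycan) are small leucine-rich proteoglycans that bind collagen, and none passed. Their changes lay between -0.06 and 0.07 in both genotypes. Lum was the least even of them, at 5.10, 4.22 and 4.76 in knockout vehicle livers and 5.52, 4.10 and 4.77 in wild-type vehicle livers. The same vehicle animals that were lowest for Lum, numbered 2 in each genotype, were also lowest for Lrat and Dcn. Under dexamethasone the animals numbered 2 were again lowest for Lum, at 4.69 in each genotype. They were also lowest for Dcn, at 9.87 in the knockout and 9.82 in the wild type. For Lrat this held in the wild type, at 5.31, but not in the knockout. Postn (periostin), a matricellular protein of activated fibroblasts, was at 5.46, 4.88 and 5.19 in knockout dexamethasone livers, against 4.74, 4.76 and 4.82 in knockout vehicle livers. These groups did not overlap, and the change of 0.40 ± 0.15 did not pass (limma adjusted p = 0.138). It was 0.18 ± 0.15 in the wild type.

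The genes of elastic fibres and crosslinking showed no call. Eln (elastin), Lox and Loxl1, which encode oxidases that crosslink collagen and elastin, had changes of 0.03 to 0.16 in the knockout and -0.10 to -0.03 in the wild type. Lox, at 2.33 to 2.67, also lay below the lowest array median of 3.13.

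Tgfb1, the main profibrotic cytokine of the liver, was at 4.18, 4.30 and 4.20 in knockout dexamethasone livers, against 4.38, 4.33 and 4.42 in knockout vehicle livers. It was at 3.88, 4.40 and 4.34 in wild-type dexamethasone livers, against 4.87, 5.05 and 4.56 in wild-type vehicle livers. The dexamethasone livers lay below the vehicle livers in both genotypes. Tgfb1 fell by 0.62 ± 0.14 in the wild type (limma adjusted p = 0.0128), against a change of -0.15 ± 0.14 in the knockout (limma adjusted p = 0.688). Without the pancreas arrays the wild-type change was -0.42 (adjusted p = 0.376), and without wild-type vehicle animal 2 it was -0.50 and no longer called. Timp2, a TIMP that also takes part in activating Mmp2, had changes of -0.16 ± 0.16 in the knockout and -0.42 ± 0.16 in the wild type (limma adjusted p = 0.118).

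**Figure D2:**
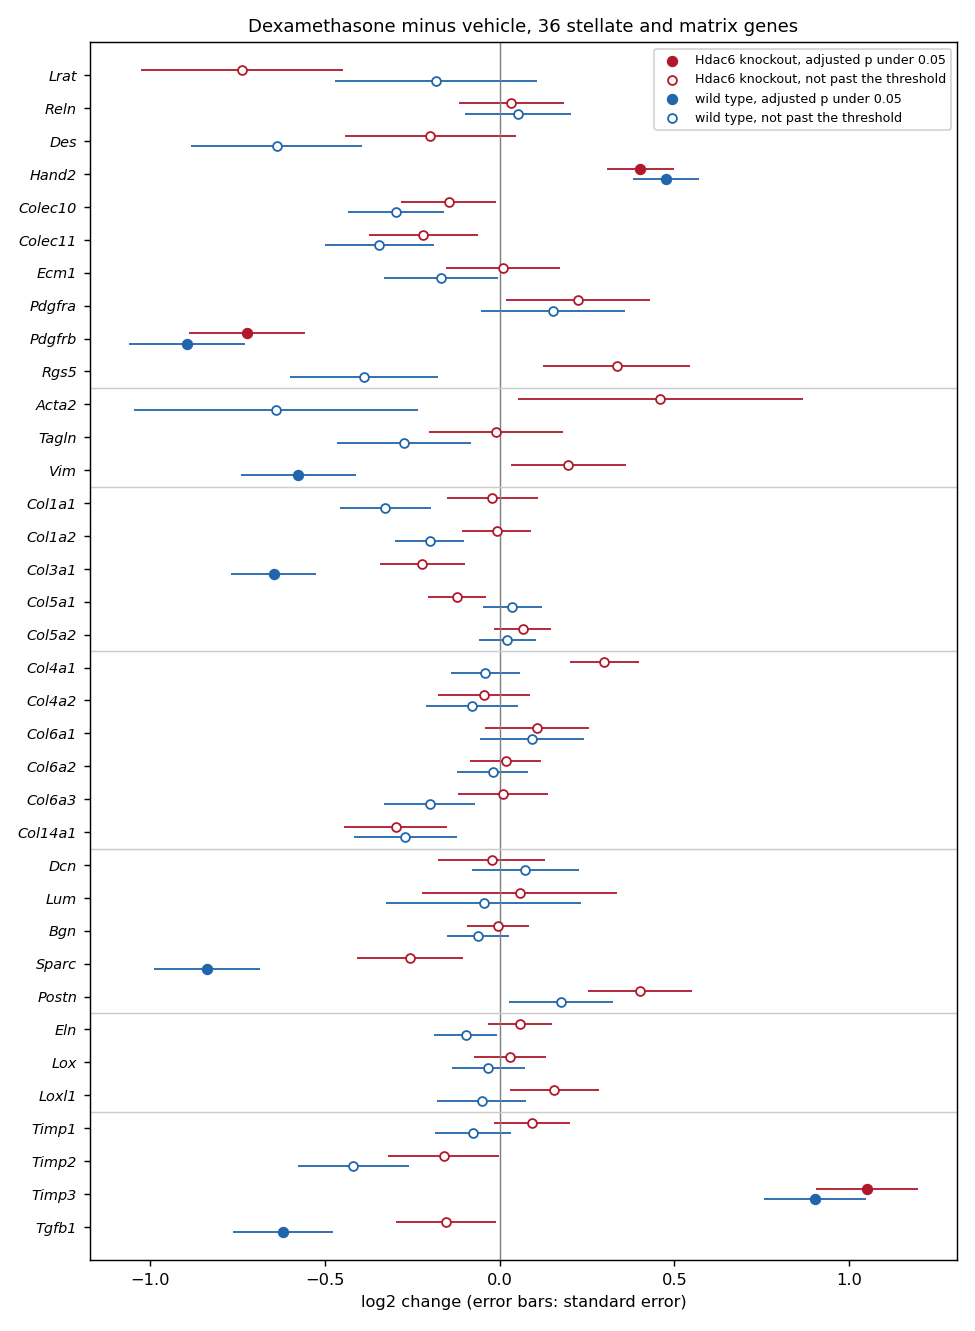
Log2 change under dexamethasone, minus vehicle, on the x axis for the 36 genes on the y axis, grouped by role, in knockout (red) and wild-type (blue) livers. Points are changes with their standard errors, filled where the adjusted p was under 0.05. Timp3 and Hand2 are filled on the right and Pdgfrb on the left in both genotypes, and Sparc, Col3a1, Tgfb1 and Vim are filled on the left in the wild type alone.

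Over all 36 members the median dexamethasone change was 0.01 in the knockout, where 19 were positive and the median over all genes was -0.01. It was -0.13 in the wild type, where 9 were positive and the median over all genes was 0.01. These medians, without the pancreas arrays, were 0.04 in the knockout and -0.06 in the wild type. In sign, 22 of 36 members changed alike in both genotypes.

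The difference between the genotypes' responses (knockout minus wild type) was tested directly, and 0 of 36 members passed. The shares over all genes tested were 0% higher and 0% lower. Vim had the smallest p-value, at 0.77 ± 0.23 (unadjusted p = 0.00555, limma adjusted p = 0.622), followed by Sparc at 0.58 ± 0.21 (adjusted p = 0.754). An unadjusted p under 0.05 was found for 6 members, among 1109 genes in all. The calls made in the wild type alone are therefore not shown to differ from the knockout.

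The mean level of all 36 members in an array ran from 5.29 to 5.35 in knockout dexamethasone livers, 5.18 to 5.38 in knockout vehicle livers, 5.33 to 5.37 in wild-type dexamethasone livers and 5.40 to 5.66 in wild-type vehicle livers. The wild-type vehicle arrays were thus the highest, and among them the 2 with pancreas transcripts were at 5.66 and 5.53, against 5.40 in the third.

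**Figure D3:**
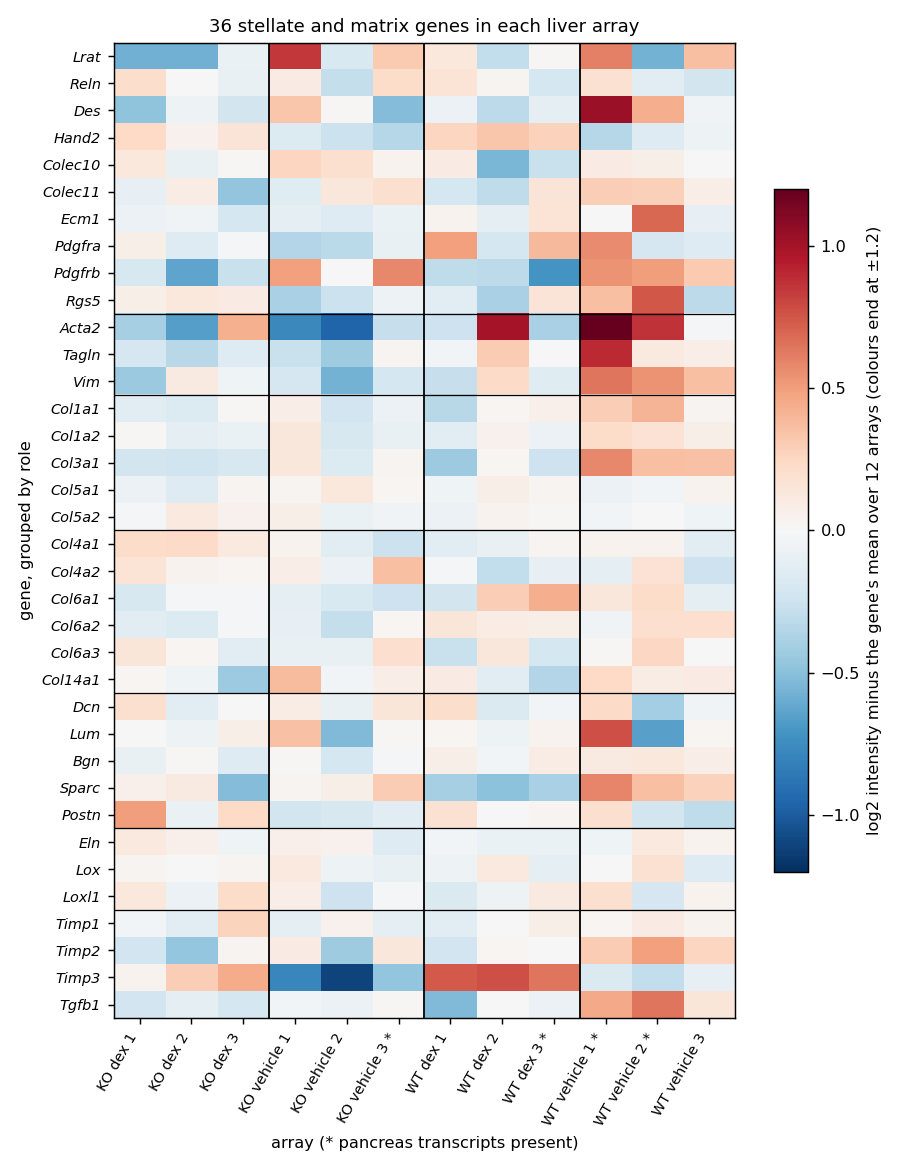
Each row is a gene, grouped by role, and each column 1 of the 12 arrays by group. Colour gives the log2 intensity minus the gene's mean over the 12 arrays, and asterisks mark arrays with pancreas transcripts. Acta2, Des, Tagln, Lum and Vim are darkest red in wild-type vehicle animal 1. Timp3 is red in the wild-type dexamethasone arrays, paler in the knockout dexamethasone arrays (animal 1 close to white) and blue in the knockout vehicle arrays.

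Loss of Hdac6 was compared under each treatment. These comparisons use the same arrays as the dexamethasone comparisons, so a high wild-type vehicle value enters both. Under vehicle 0 of 36 members passed, where 0.0391% of all genes were called higher and 0.0614% lower. An unadjusted p under 0.05 was found for 11 members, among 1288 of all 17904 genes, and all 11 had values on the lower side in the knockout. The closest were Vim at -0.84 ± 0.16 (limma adjusted p = 0.131), Timp3 at -0.61 ± 0.15 (limma adjusted p = 0.329) and Acta2 at -1.43 ± 0.41 (limma adjusted p = 0.439). Each of these 3 genes had non-overlapping groups in the values above. So did 8 of 36 members in all, and 11.8% of all genes, in that comparison.

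Col3a1 (-0.43 ± 0.12), Tgfb1 (-0.45 ± 0.14) and Tagln (-0.59 ± 0.19) came next, with limma adjusted p-values of 0.442, 0.519 and 0.533. Tagln was at 3.98, 3.82 and 4.28 in knockout vehicle livers, against 5.15, 4.36 and 4.33 in wild-type vehicle livers. Without the pancreas arrays the vehicle difference was -0.84 for Acta2, -0.74 for Vim and -0.20 for Tgfb1, and that of Des was 0.22 in place of -0.53. The median over the 36 was -0.14, with 8 positive, and -0.08 without those arrays.

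Under dexamethasone 0 of 36 members differed between knockout and wild type, where 0.0112% of all genes were called higher and 0.0168% lower. Only 2 members had an unadjusted p under 0.05, among 1566 genes in all. These were Timp3 at -0.46 ± 0.15 (limma adjusted p = 0.396) and Col4a1 at 0.24 ± 0.10 (limma adjusted p = 0.514). The median over the 36 was -0.01, with 18 positive. Col1a1 differed by -0.01, with a 95% interval of -0.29 to 0.27, and Col3a1 by 0.00, with an interval of -0.26 to 0.26.

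Averaged over treatments, 0 of 36 passed, where 0.0168% of all genes were called higher and 0.0335% lower, and 9 members had an unadjusted p under 0.05, among 1798 genes. Timp3 was the nearest, 0.53 lower in the knockout on the log2 scale (SE 0.10, limma adjusted p = 0.11). Between genotypes, 11.8% of all genes did not overlap under vehicle and 14.0% under dexamethasone. In each treatment all 3 knockout levels of Timp3 lay below all 3 wild-type levels. Timp3 passed in 1 of 22 alternatives. That was without knockout vehicle animal 3, the highest of its group and 1 of the 4 pancreas arrays (-0.61, limma adjusted p = 0.0418). With a term for all 4 pancreas arrays the averaged difference was -0.51 and not called (limma adjusted p = 0.291). Leaving all 4 out gave -0.67, with 1 wild-type vehicle array left.

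**Figure D4:**
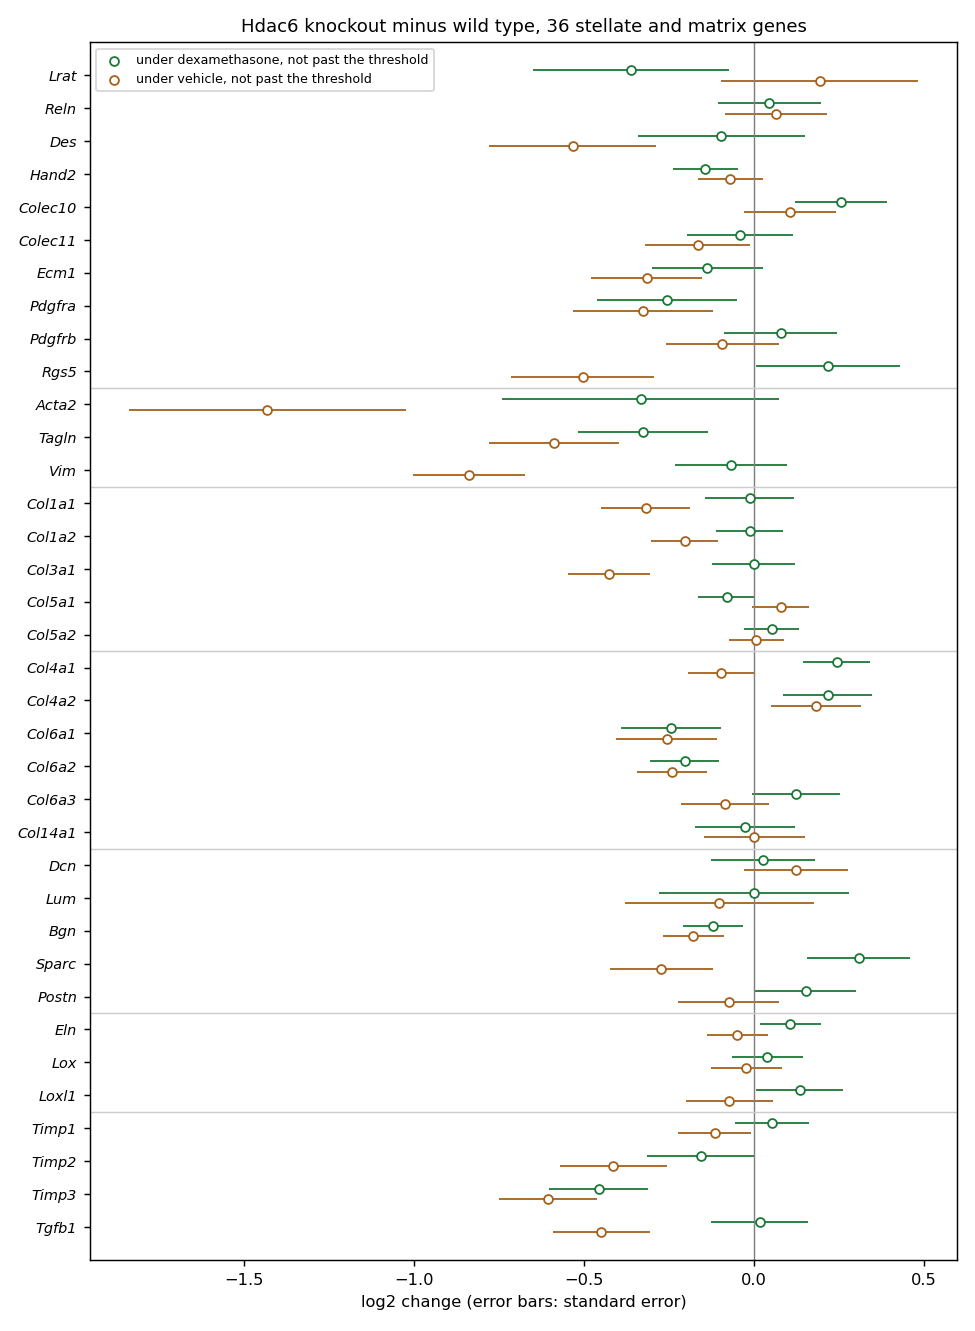
Log2 difference, knockout minus wild type, on the x axis for the 36 genes on the y axis, grouped by role, under dexamethasone (green) and under vehicle (brown). Points are differences with their standard errors, all open because none had an adjusted p under 0.05. Acta2, Vim and Timp3 lie farthest to the left under vehicle.

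The arrays with pancreas transcripts were also set against the rest with the 4 group means held. Over all genes 0.145% were called higher in them and 0% lower, and 0 of 36 members passed. Rgs5 had the smallest p-value, 0.51 ± 0.12 higher (unadjusted p = 9.16e-04, limma adjusted p = 0.421).

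Markers of other liver cells were counted in the same way. Over all genes, 4.38% were called higher and 3.92% lower under dexamethasone in the knockout. In the wild type the shares were 4.57% and 6.95%, and a count near such shares is not a result about a list. Of 15 Kupffer cell markers, 1 rose and 0 fell under dexamethasone in the knockout, against 1 and 11 in the wild type. The direct test of the difference between the genotypes' responses called 0 of the 15, so a difference is not shown. Without the pancreas arrays the knockout counts were the same and the wild-type counts were 0 and 0. Their mean level per array ran from 6.21 to 7.02 in knockout dexamethasone, 6.34 to 6.74 in knockout vehicle, 5.62 to 6.04 in wild-type dexamethasone and 6.48 to 7.27 in wild-type vehicle livers. Of 16 endothelial markers, 2 rose and 4 fell in the knockout, against 1 and 6 in the wild type, with mean levels of 6.35 to 6.47, 6.32 to 6.47, 6.25 to 6.36 and 6.43 to 6.63 in the same order of groups. Endothelial counts without the pancreas arrays were 1 and 1 in each genotype. Vim, Tgfb1 and Sparc are also expressed by these cells, and the part of the markers in their changes was not tested.

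For Acta2, Tagln and Des, the matching markers are those of smooth muscle, a list of 10 genes that includes Des itself. Its mean level ran from 3.82 to 3.95 in knockout dexamethasone, 3.70 to 3.87 in knockout vehicle, 3.83 to 4.14 in wild-type dexamethasone and 3.80 to 4.37 in wild-type vehicle livers. In the knockout 1 rose and 0 fell under dexamethasone, and in the wild type 1 rose and 1 fell, or 0 and 0 without the pancreas arrays. No gene of the Kupffer, endothelial, smooth muscle or pancreas list was below the 20th percentile in all 12 arrays. The smooth muscle counts are too few to read against the shares over all genes. The part of smooth muscle RNA in the contractile genes was not tested. Portal fibroblast and mesothelial markers, 12 genes, had 0 calls in either genotype. Of 9 lymphocyte markers that were tested 0 passed in the knockout and 3 fell in the wild type. Their median wild-type change was -0.15, or -0.08 without the pancreas arrays. Mean levels per array were 3.16 to 3.54 for the portal list and 2.32 to 2.71 for the lymphocyte list, where array medians were 3.13 to 3.24. With levels this low, few calls do not show that these cells were unchanged.

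Genes that act with the members were counted from lists chosen with earlier results of these data known, in the dexamethasone effect averaged over genotypes. Over all genes 7.29% were called higher and 9.94% lower in that effect, and a count in a list near those shares is not a result about the list. TGF-beta and PDGF signalling genes held 3 that rose and 10 that fell among 31. The counts were 3 and 6 without the pancreas arrays. By genotype, 3 rose and 5 fell in the knockout, and 3 rose and 7 fell in the wild type. The numbers that fell were 2 in the knockout and 1 in the wild type without the pancreas arrays, and those that rose were 3 in each.

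Tgfbr3 (betaglycan, a co-receptor for TGF-beta) was at 6.45, 6.69 and 6.46 in knockout dexamethasone livers and 5.55, 5.33 and 5.57 in knockout vehicle livers. It was at 6.34, 6.48 and 6.11 in wild-type dexamethasone livers and 5.65, 5.63 and 5.52 in wild-type vehicle livers. The 6 dexamethasone livers all lay above the 6 vehicle livers, and the averaged change was 0.88 ± 0.08 (limma adjusted p = 5.28e-06). Skil, which encodes the SMAD repressor SnoN, rose by 0.89 ± 0.09 (limma adjusted p = 1.39e-05). Ccn2, the connective tissue growth factor that TGF-beta induces, rose by 1.05 ± 0.11 (limma adjusted p = 2.13e-05).

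Smad3, the SMAD that carries much of the fibrogenic TGF-beta signal, was at 5.32, 5.13 and 5.08 in knockout dexamethasone livers and 6.23, 5.73 and 5.94 in knockout vehicle livers. It was at 4.98, 4.77 and 5.15 in wild-type dexamethasone livers and 5.91, 6.53 and 6.05 in wild-type vehicle livers. Again the treatments did not overlap. Smad3 fell by 0.99 ± 0.12 (limma adjusted p = 4.82e-05). All 4 of these calls also held without the pancreas arrays, unlike the averaged call of Tgfb1.

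**Figure D5:**
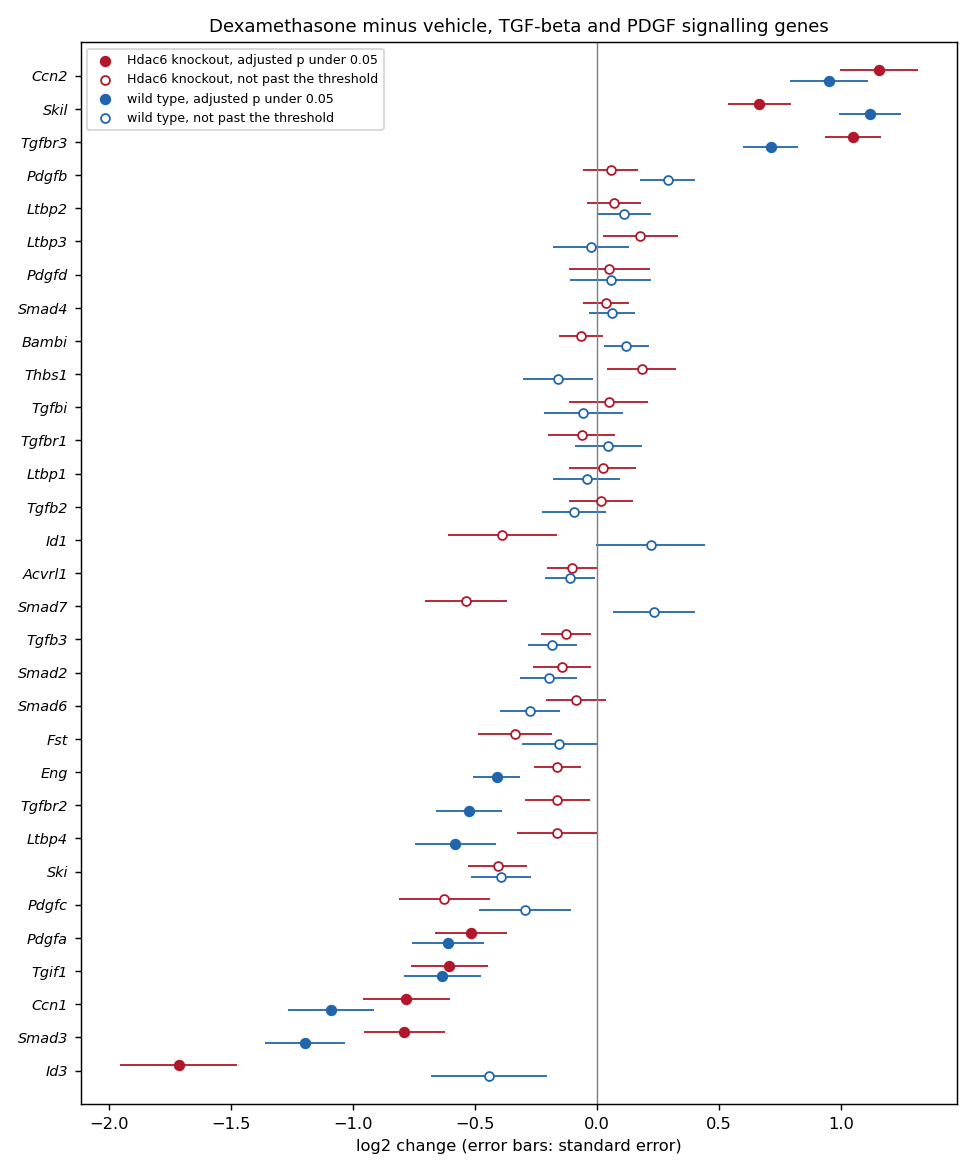
Log2 change under dexamethasone, minus vehicle, on the x axis for 31 TGF-beta and PDGF signalling genes on the y axis, in knockout (red) and wild-type (blue) livers, with standard errors and filled points where the adjusted p was under 0.05. Ccn2, Skil and Tgfbr3 are filled on the right and Pdgfa, Tgif1, Ccn1 and Smad3 on the left in both genotypes.

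Among 26 matrix proteases and their inhibitors that were tested, 1 rose and 3 fell, or 1 and 1 without the pancreas arrays. Timp4, another TIMP, was at 3.61, 5.48 and 5.54 in knockout dexamethasone livers and 2.92, 2.73 and 2.81 in knockout vehicle livers. It was at 5.97, 6.28 and 4.50 in wild-type dexamethasone livers and 2.83, 2.88 and 2.85 in wild-type vehicle livers. Every dexamethasone liver was above every vehicle liver, with 1 weaker animal in each dexamethasone group. Its averaged change was 2.39 ± 0.33 (limma adjusted p = 1.94e-04), larger in size than that of any of the 36 members. Adamts5, an aggrecan-cleaving protease, fell by 0.64 ± 0.10 (limma adjusted p = 5.23e-04), Mmp14, the membrane-bound collagenase that activates Mmp2, by 0.58 ± 0.10 (limma adjusted p = 0.00119), and Mmp19 by 0.54 ± 0.10 (limma adjusted p = 0.0014). Mmp14 (adjusted p = 0.0509) and Mmp19 (adjusted p = 0.0602) were no longer called by limma without the pancreas arrays. Of the members, Timp1 had changes of 0.09 ± 0.11 in the knockout and -0.08 ± 0.11 in the wild type.

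Of 18 basement membrane genes outside the members, 0 rose and 4 fell. Lama4, a laminin chain of vessel walls, was at 3.42, 3.19 and 3.13 in knockout dexamethasone livers and 3.82, 3.88 and 4.03 in knockout vehicle livers. It was at 3.34, 2.92 and 3.08 in wild-type dexamethasone livers and 4.30, 3.87 and 3.86 in wild-type vehicle livers. The treatments did not overlap, and Lama4 fell by 0.78 ± 0.10 (limma adjusted p = 9.79e-05). The laminin chain Lamc1 fell by 0.41 ± 0.07, the collagen Col18a1 by 0.30 ± 0.08 and Hspg2 (perlecan) by 0.28 ± 0.06, with limma adjusted p-values of 0.00138, 0.014 and 0.00678. Only Lama4 of these 4 was still called without the pancreas arrays.

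Of 19 other stellate cell genes, 2 rose and 3 fell, or 1 and 2 without the pancreas arrays. Pth1r, the parathyroid hormone receptor, fell by 0.64 ± 0.09 (limma adjusted p = 3.13e-04), the chemokine Cxcl12 by 0.41 ± 0.08 (limma adjusted p = 0.00231) and Bmp5, a ligand of the TGF-beta superfamily, by 0.68 ± 0.15 (limma adjusted p = 0.0052). Vipr1, a receptor for vasoactive intestinal peptide, rose by 0.37 ± 0.08 (limma adjusted p = 0.00378). Of these 4, Bmp5 was no longer called without the pancreas arrays (-0.61, adjusted p = 0.0526).

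Of 20 genes for collagen biosynthesis and crosslinking, 2 rose and 1 fell, and without the pancreas arrays 1, Adamts14, rose and 0 fell. Adamts14, which removes the amino-terminal propeptide of procollagen, rose by 0.40 ± 0.07 (limma adjusted p = 0.00125). Bmp1, which removes the carboxy-terminal propeptide, rose by 0.31 ± 0.08 (limma adjusted p = 0.0175). Pcolce2, an enhancer of that second cleavage, fell by 0.69 ± 0.15 (limma adjusted p = 0.00435).

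The last list held 31 other matrix genes that were tested, of which 3 rose and 2 fell. The proteoglycans Sdc4 and Gpc4 rose by 0.44 ± 0.08 and 0.34 ± 0.07, and the transmembrane collagen Col13a1 by 0.32 ± 0.09, while the proteoglycan Sdc2 fell by 0.30 ± 0.09. Their limma adjusted p-values were 0.00128, 0.00513, 0.0292 and 0.045. Leaving out 1 array at a time gave 2 to 3 that rose and 0 to 3 that fell in this list, and without the 4 pancreas arrays 1, Sdc4, rose and 0 fell.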

How the data were processed

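The authors' deposited values are log2 intensities of 34760 probe sets on 12 arrays, made with affy in R 2.10.0, going by the submitters' processing notes. Their background correction, normalisation and summary are not given in the sources used here. Array medians were 3.13 to 3.24, and the number of arrays limits the precision. A gene was represented by its single-symbol probe set with the highest mean (21640 such probe sets, 19937 genes) and kept if above its array's 20th percentile in at least 3 arrays. The 4 group means were fitted with limma 3.58.1 in R 4.3.3 (with data.table, version 1.17.8) and 7 comparisons tested with Benjamini-Hochberg adjustment at 0.05. The members and lists were chosen with earlier results of these data known. All measured members are named, and of each other list up to 4 genes with the smallest p in the averaged dexamethasone effect. Alternatives covered normalisation, filter, probe sets, samples in the fit, replicate block, array weights, limma-trend and the pancreas arrays. The fit was tested on simulated data. Promoters and neighbouring genes came from RefSeq tables (GRCm38.p6).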

Additional observations from a re-analysis of the deposited data

How the results depend on the processing

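The counts of called members kept within 1.5 times of the reported ones (7 for dexamethasone in the wild type, 3 in the knockout, 6 averaged over genotypes and 0 in the other comparisons) under quantile normalisation, median centring, both other filters, the mean of probe sets, only the groups compared, array weights, limma-trend and a term for the pancreas arrays. With the 4 pancreas arrays left out, they were 0 in the wild type, 1 in the knockout and 3 in the average, on fewer arrays. Leaving out 1 array at a time gave 5 to 9 members in the wild type, 1 to 3 in the knockout, 6 to 8 in the average and 0 to 1 for genotype averaged over treatments. The low knockout count and the 1 genotype call (Timp3) both came without knockout vehicle replicate 3. Without knockout vehicle replicate 3, Timp3 remained the 1 knockout call. No called member changed sign under any alternative. The labels state no pairing by replicate number. The 18 same-numbered pairs had correlations of deviations from -0.54 to 0.36, 3 of them over 0.1. The 36 other pairs between groups ran from -0.35 to 0.40, 11 of them over 0.1. With 3 animals in each group, these correlations cannot show whether the numbers pair the animals. With the replicate block the counts were 6 in the wild type, 4 in the knockout and 9 in the average. Of single calls, Vim in the wild type was lost in 8 of 23 alternatives, Hand2 in the knockout in 5, Pdgfrb in the knockout in 4 and Tgfb1 in the wild type in 3, while Timp3 in the knockout was lost in 0. Others passed in a single alternative or a few, such as Des in the wild type without wild-type vehicle replicate 3 (-0.90).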
